A study of Mus musculus with 6 samples.

Results

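The cholesterol and fatty acid synthesis genes are 37 genes chosen by name: the SREBP regulators, the enzymes of the mevalonate and sterol pathways, sterol carriers, and the enzymes that make, elongate and desaturate fatty acids. They are 37 of the 14777 genes of the deposited count table, and the rule that picks them uses no measured value. All 37 passed the filter on low counts, which kept 14632 genes for testing. Naive CD4 T cells of C57BL/6 mice had been turned into regulatory T cells (Treg) in culture, and their polyadenylated RNA was sequenced. One group carried full-length FOXP3 (FOXP3 FL, written FL, 3 libraries). The other carried FOXP3 ΔE2, labelled as a Foxp3 exon 2 deletion (written dE2, 3 libraries), and the comparison addresses how loss of that exon changes the transcripts of induced Treg. Cells of both groups had spent 3 days with coated anti-CD3 and anti-CD28 (1 µg/ml each), recombinant human TGFβ at 5 ng/ml and IL-2, also recombinant human, at 20 ng/ml, after which over 90% were FOXP3+. These are cells induced in vitro, not Treg taken from tissue. The labels do not give how the exon was deleted, the age or sex of the mice, or whether replicates were separate animals or cultures, so p-values measure only the spread between these libraries, which may be technical.

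SREBP transcription factors are held in the endoplasmic reticulum with their escort SCAP. INSIG proteins retain that complex when sterols are plentiful, and when sterols fall SCAP carries SREBP to the Golgi, where proteases release the part that enters the nucleus. SREBP-2 mainly drives genes of cholesterol synthesis and SREBP-1 mainly those of fatty acid synthesis, and activated T cells are known to raise both pathways to build membrane for growth and division.

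Library totals were between 13307155 and 16140432 counts. Levels are given as CPM, counts relative to the library total, scaled by composition factors (TMM). Foxp3 stood at 447, 397 and 337 CPM in FL replicates 1 to 3 and at 436, 403 and 335 CPM in dE2 replicates 1 to 3. This gene-level count did not separate the groups (adjusted p = 0.985), and it cannot check the loss of 1 exon. The 8 T cell and Treg markers summed to between 9533 and 10390 CPM in FL and to between 9784 and 12580 CPM in dE2, and 1 of them rose (Cd4, log2 fold change 0.49 ± 0.14, edgeR adjusted p = 0.0438). With a replicate block, a fit described with the members' results, Cd3e (0.00404), Trac (0.02) and Tnfrsf18 (0.0338) were also higher and Ikzf2 lower (0.0014). The 2 CD8 T cell markers summed to 53.0, 29.0 and 48.3 CPM in FL and to 138, 58.4 and 50.8 CPM in dE2, so dE2 replicate 1 was the highest of the 6. The macrophage and dendritic cell markers in the table (Lyz2 and Cd68) summed to between 4.52 and 7.86 CPM in FL and between 8.97 and 22.6 CPM in dE2, and the 4 B cell markers stayed between 14.7 and 33.7 CPM in all 6 libraries. Klrb1c, the NK cell marker in the table, was at 3.61 CPM or less. With the block Cd8b1 (adjusted p = 4.29e-06) and Cd68 (0.0135) were higher in dE2, and all their dE2 libraries were above all FL libraries. The part of these cells in the results was not tested. In bulk RNA, fewer cells of a type and less RNA per cell cannot be told apart.

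Few of the 37 genes changed between the groups when libraries were compared as independent replicates. By edgeR's quasi-likelihood test with Benjamini-Hochberg adjustment over all tested genes, at a threshold of 0.05, 1 member rose in dE2 (Elovl1), 1 fell (Mvd) and 35 did not pass. That is 5.41% of members, against 6.17% of all tested genes, a share close to the background (3.75% of all tested genes were higher and 2.43% lower). An unadjusted p under 0.05 was reached by 9 of the 37 members and by 3289 of all tested genes (22.5%). The median log2 fold change, dE2 minus FL, was 0.03 over the members and -0.0043 over all tested genes, and 21 of the 37 were above 0. The libraries of the groups did not overlap for 6 members (16.2%): Hsd17b7, Ebp, Sc5d, Elovl1 and Elovl5 lay higher in all dE2 libraries and Mvd lower. Among all tested genes 27.1% did not overlap, 13.6% with dE2 above. At every replicate number dE2 was above FL for 14 members (37.8%, against 25.3%) and below for 6 (16.2%, against 25.5%).

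Many members varied with the replicate number in both groups. Libraries numbered 1 were the lowest of their group in both FL and dE2 for 20 of the 37 members (54.1%), against 17.3% of all tested genes. Averaged over the members, log2 CPM relative to the FL mean in replicates 1 to 3 was -0.25, 0.20 and 0.06 for FL and -0.10, 0.13 and 0.18 for dE2. The labels do not say what a shared number stands for. Across all genes, same-numbered libraries deviated together, so a second fit carried the replicate number as a block and compared each dE2 library with the FL library of its number. With the replicate block, 10 members were higher in dE2 (Idi1, Sqle, Cyp51, Msmo1, Hsd17b7, Ebp, Sc5d, Dhcr7, Elovl1 and Elovl5) and 2 were lower (Mvd and Elovl6). That is 32.4% of members against 21.5% of all tested genes, and the 10 higher ones are 27% of members against 11.5% (10.1% of all tested genes were lower). Over the 37 members alone, the deviations of same-numbered libraries correlated at 0.73 for number 1, 0.034 for number 2 and 0.21 for number 3, while FL replicate 2 and dE2 replicate 3 correlated at 0.56. These correlations are across genes, which are not independent replicates, and the pairing was uneven over the members. In the authors' deposited table, 5 members had an FDR under 0.05 (13.5%, against 8.17% of all genes, 4.91% higher): Mvd at 0.0282, Cyp51 at 0.0331, Hsd17b7 at 0.0484, Elovl1 at 0.00291 and Elovl5 at 0.0391.

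Other settings moved these counts. DESeq2 called Cyp51, Hsd17b7, Ebp, Sc5d, Elovl1 and Elovl5 higher and Mvd lower, against 7.7% of all tested genes. The likelihood ratio test of edgeR called Cyp51, Elovl1 and Elovl5 higher and Mvd lower, against 7.59%. Without a composition factor 0 members were higher and Mvd was lower, against 8.32%, and with that setting and the replicate block 7 members were higher and 8 lower, against 23.2%. Without dE2 replicate 1, the dE2 library in which most sterol enzymes were lowest and the CD8 markers highest, 7 members were higher (Sqle, Cyp51, Hsd17b7, Sc5d, Dhcr7, Elovl1 and Elovl5) and Mvd and Acss2 were lower, against 9.29%. Without FL replicate 1, FL replicate 2 or dE2 replicate 2 no member passed, against 2.41%, 3.09% and 1.19% of all tested genes.

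**Figure D1:**
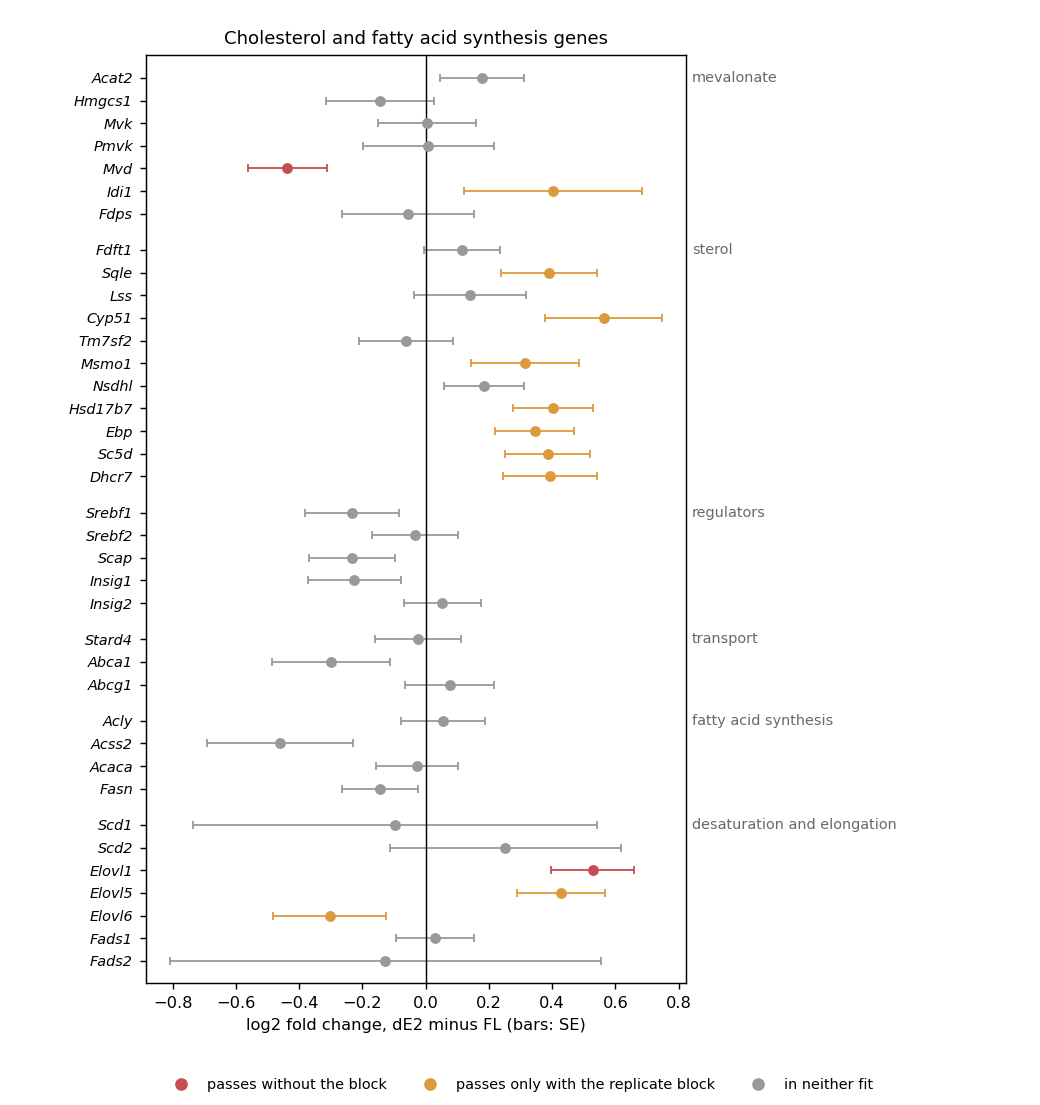
Log2 fold change, dE2 minus FL, of the 37 members with its standard error (bars), ordered by role from the mevalonate pathway to desaturation and elongation, 3 libraries a group. Elovl1 on the right and Mvd on the left pass without the replicate block, and most of the points that pass only with the block are sterol enzymes.

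The mevalonate enzymes, which build isoprenoid units from acetyl-CoA, had a median log2 fold change of 0.0032 over 7 genes, and 1 of them passed. Mvd, the diphosphomevalonate decarboxylase that makes isopentenyl diphosphate, fell. It stood at 31.1, 34.3 and 30.3 CPM in FL replicates 1 to 3 and at 23.9, 25.3 and 21.5 CPM in dE2 replicates 1 to 3. Every dE2 library was below every FL library, and the log2 fold change was -0.44 ± 0.13 (SE, adjusted p = 0.0412, edgeR). The gene (ENSMUSG00000006517) lies in mm10 on chromosome 8, 122433601 to 122443422, minus strand. Its call was close to the threshold. It did not hold without FL replicate 1 (adjusted p = 0.109), FL replicate 2 (0.172), FL replicate 3 (0.0819), dE2 replicate 2 (0.0822) or dE2 replicate 3 (0.0778), while without dE2 replicate 1 it did. Nor did it hold in limma-voom (0.0553) or without the robust setting of edgeR (0.0532).

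Idi1, the isomerase that acts on the product of Mvd, had a fold change above 0 and a wide spread. Idi1 stood at 21.8, 41 and 28.4 CPM in FL and at 35.3, 52.6 and 33 CPM in dE2, with a log2 fold change of 0.40 ± 0.28 (edgeR adjusted p = 0.466). The groups overlapped, but dE2 was above FL at each replicate number, by 0.69, 0.35 and 0.22 on the log2 scale, and the adjusted p with the replicate block was 0.00208. The other 5 mevalonate enzymes passed neither fit. Hmgcs1, the HMG-CoA synthase, showed a log2 fold change of -0.14 ± 0.17 and Acat2, the cytosolic thiolase at the entry of the pathway, one of 0.18 ± 0.13. Hmgcs1 shares 12.1% of its counted bases with a gene on the other strand, so its value is uncertain. The log2 fold changes of the kinases Mvk and Pmvk were 0.00 and 0.01 and that of the farnesyl diphosphate synthase Fdps was -0.06. The near copies Acat3 and Idi2 were counted at no more than 2.21 CPM in any library.

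The sterol enzymes, which turn farnesyl diphosphate into squalene, lanosterol and then cholesterol, were mostly a little higher in dE2, without a call. None of the 11 passed the quasi-likelihood test, at which 3.75% of all tested genes were higher. Their median log2 fold change was 0.35, 10 of 11 were above 0 (49.5% of all tested genes), and 6 had an unadjusted p under 0.05 (22.5% of all tested genes). At every replicate number the dE2 library was above its FL counterpart for 8 of 11, against 25.3% of all tested genes, and 7 of 11 were called higher with the replicate block, against 11.5%. Averaged over the 11 genes, log2 CPM relative to the FL mean in replicates 1 to 3 was -0.24, 0.14 and 0.09 for FL and 0.09, 0.41 and 0.38 for dE2. The libraries numbered 1 were thus the lowest in each group, and dE2 replicate 1 lay level with FL replicate 3. Without a composition factor the median of the 11 was 0.21, when that of all genes was -0.14.

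Cyp51, the lanosterol demethylase, had the highest log2 fold change of the 11. Its levels in replicates 1 to 3 were 389, 619 and 579 CPM for FL and 609.9, 910.2 and 825 CPM for dE2. FL replicate 2 exceeded dE2 replicate 1, so the groups overlapped, and the log2 fold change of 0.56 ± 0.18 did not pass (edgeR adjusted p = 0.0882). Number by number the differences were 0.65, 0.56 and 0.51 on the log2 scale, and with the replicate block the adjusted p was 1.59e-06. The gene (ENSMUSG00000001467, mm10 chromosome 5, 4081145 to 4104746, minus strand) shares 3.76% of its counted bases with the antisense gene Akap9. Between 48.4% and 49.8% of reads in coding sequence were sense, so reads of antisense partners cannot be told apart.

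Hsd17b7, the ketosteroid reductase of sterol synthesis, stood at 56.6, 69.2 and 72.5 CPM in FL and at 76.6, 93.1 and 92.6 CPM in dE2. All dE2 libraries were above all FL libraries, and the log2 fold change was 0.40 ± 0.13 (edgeR adjusted p = 0.0581, and 0.000561 with the replicate block). Sc5d, the lathosterol desaturase, stood at 291, 356 and 360.4 CPM in FL and at 383, 495 and 439 CPM in dE2, again without overlap (0.39 ± 0.13, adjusted p = 0.0887, with the block 0.00137). Ebp, the isomerase that shifts the ring double bond, stood at 357, 332 and 405 CPM in FL and at 444, 485 and 461 CPM in dE2. Ebp too did not overlap (0.35 ± 0.13, adjusted p = 0.103, with the block 0.00452), and its lowest FL library was replicate 2.

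Sqle, the squalene epoxidase, stood at 225, 321 and 311 CPM in FL and at 305, 421 and 397 CPM in dE2 (0.39 ± 0.15, edgeR adjusted p = 0.129, with the block 0.000892). Dhcr7, which reduces 7-dehydrocholesterol to cholesterol, stood at 115, 152 and 156 CPM in FL and at 145, 203 and 209 CPM in dE2 (0.39 ± 0.15, adjusted p = 0.121, with the block 0.000789). Msmo1, the sterol methyl oxidase, stood at 218, 315 and 322 CPM in FL and at 276, 412 and 375 CPM in dE2 (0.31 ± 0.17, adjusted p = 0.297, with the block 0.00966). In these genes dE2 replicate 1 was below FL replicates 2 and 3, and replicate number 1 was the lowest of each group. Of the sterol enzymes left, the squalene synthase Fdft1 showed a log2 fold change of 0.11 ± 0.12, the lanosterol synthase Lss 0.14 ± 0.18, the sterol decarboxylase Nsdhl 0.18 ± 0.13 and the reductase Tm7sf2 -0.06 ± 0.15, and none of them passed either fit. Fdft1 shares 18.3% of its counted bases with Ctsb on the other strand and Tm7sf2 shares 15.3% with Vps51 on the same strand, so their values are uncertain.

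**Figure D2:**
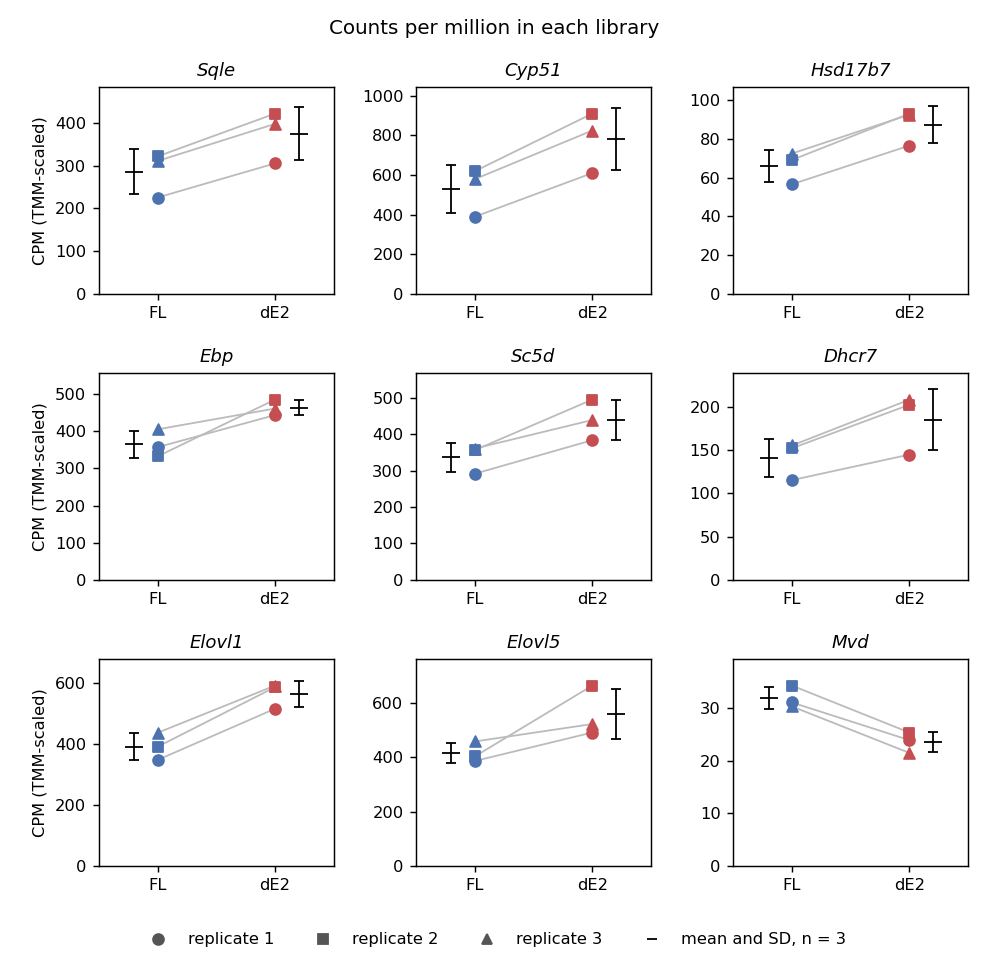
CPM (vertical axes, from 0) of 9 members called in either fit, in FL and dE2 (horizontal axes), with circles, squares and triangles for replicates 1, 2 and 3, grey lines joining libraries of the same number, and bars for the mean and SD of each group (n = 3). In the sterol enzymes Cyp51 and Sqle the dE2 library is above its FL counterpart at each number although the groups overlap, and Mvd is below at each number.

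None of the 5 regulators passed either fit or reached an unadjusted p under 0.05 without the block, and their median log2 fold change was -0.23. Srebf1, the gene of SREBP-1, stood at 109, 131 and 139 CPM in FL and at 109, 83.1 and 130.3 CPM in dE2, with a log2 fold change of -0.23 ± 0.15 (edgeR adjusted p = 0.372, with the block 0.0572). Its lowest library was dE2 replicate 2, a library in which the sterol enzymes were high. Srebf2, the gene of SREBP-2, stood at 190.0, 254 and 241 CPM in FL and at 211, 201 and 258 CPM in dE2, and the groups overlapped (-0.03 ± 0.14, adjusted p = 0.918). Insig1, both a retention factor for SCAP and a classical SREBP target, stood at 59.2, 92.5 and 71.7 CPM in FL and at 55.8, 64 and 71.3 CPM in dE2 (-0.23 ± 0.15, adjusted p = 0.393). The escort Scap showed a log2 fold change of -0.23 ± 0.14 (adjusted p = 0.331, with the block 0.058), and Insig2 one of 0.05 ± 0.12. Scap shares 13.2% of its counted bases with an antisense gene. These are transcript levels, and the cleavage of SREBP proteins was not measured. At every replicate number 3 of the 5 were lower in dE2 (Srebf1, Scap and Insig1), against 25.5% of all tested genes. The log2 differences at numbers 1 to 3 were -0.002, -0.659 and -0.089 for Srebf1 and -0.084, -0.527 and -0.007 for Insig1. For Scap they were -0.175, -0.38 and -0.175. In each gene the fall was largest at number 2, and those of Srebf1 at number 1 and Insig1 at number 3 were very small. Alternatives added after seeing the data called some of them lower. These were the replicate block with no composition factor for Srebf1 (adjusted p = 0.0378), Scap (0.00519) and Insig1 (0.0232), the block without number 1 for Srebf1 (0.042), and the block without number 3 for Insig1 (0.0445). Of all tested genes, 23.2%, 10.9% and 20.6% were called in these fits. With no composition factor and the block, the median of all genes was itself -0.14, and 2644 genes were lower against 757 higher.

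None of the 3 sterol carriers passed, and 0 had an unadjusted p under 0.05. Abca1, the exporter that loads apolipoprotein A-I and a target of the sterol receptor LXR, showed a log2 fold change of -0.30 ± 0.19 (edgeR adjusted p = 0.36). For its partner in export Abcg1 the log2 fold change was 0.08 ± 0.14 and for Stard4, a soluble cholesterol carrier, -0.03 ± 0.14, and none of these passed with the replicate block. Abca1 was called lower with the block and number 2 left out of both groups (-0.56, adjusted p = 0.0253), an alternative added after seeing the data. That fit called 10.3% of all tested genes in either direction. The 4 fatty acid synthesis enzymes did not pass either fit (0 with an unadjusted p under 0.05), with a median log2 fold change of -0.09. Acss2, which makes acetyl-CoA from acetate, stood at 6.65, 6.13 and 5.95 CPM in FL and at 6.22, 3.18 and 4.14 CPM in dE2, with a log2 fold change of -0.46 ± 0.23 (adjusted p = 0.242, with the block 0.0524). The fatty acid synthase Fasn stood at 209.6, 263 and 235 CPM in FL and at 215, 211 and 214 CPM in dE2 (-0.14 ± 0.12, adjusted p = 0.52). For both, libraries of the groups overlapped. The ATP citrate lyase Acly showed a log2 fold change of 0.06 ± 0.13 and the acetyl-CoA carboxylase Acaca one of -0.03 ± 0.13.

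The 7 genes of desaturation and elongation split: Elovl1 rose, Elovl5 and Elovl6 passed only with the replicate block and in opposite directions, and the desaturases did not pass. Elovl1, which elongates saturated and monounsaturated very long acyl chains, stood at 348, 392 and 438 CPM in FL replicates 1 to 3 and at 517, 588 and 593 CPM in dE2 replicates 1 to 3. Every dE2 library was above every FL library. The level was 1.44-fold higher in dE2, a log2 fold change of 0.53 ± 0.13 (edgeR adjusted p = 0.0197), and the differences at the 3 numbers were 0.57, 0.59 and 0.44. The gene (ENSMUSG00000006390) lies in mm10 on chromosome 4, 118428093 to 118432953, plus strand, and 1.94% of its counted bases overlap Cdc20 on the other strand. Its call was lost without FL replicate 1 (adjusted p = 0.134), FL replicate 2 (0.072) or dE2 replicate 2 (0.116), and without a composition factor (0.0577), where the log2 fold change was 0.39.

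Elovl5, which elongates polyunsaturated chains, stood at 387, 404 and 459 CPM in FL and at 492, 666 and 524 CPM in dE2. The groups did not overlap, dE2 replicate 2 was the highest of the 6, and the log2 fold change was 0.43 ± 0.14 (edgeR adjusted p = 0.0671, with the block 0.000607). Elovl6, which takes palmitate to stearate, stood at 158, 212 and 177 CPM in FL and at 106, 179 and 159 CPM in dE2. Its groups overlapped, with dE2 replicate 1 the lowest library (-0.30 ± 0.18, adjusted p = 0.346, with the block 0.00654).

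The stearoyl-CoA desaturases, which put the first double bond into saturated chains, varied more between replicates than between groups. Scd1 stood at 64.8, 204 and 138 CPM in FL and at 68.6, 105 and 208 CPM in dE2, a log2 fold change of -0.10 ± 0.64 (edgeR adjusted p = 0.954). Scd2 stood at 1016, 2041 and 1861 CPM in FL and at 1258, 2099 and 2501 CPM in dE2 (0.25 ± 0.36, adjusted p = 0.75). Fads2, the desaturase that opens polyunsaturated fatty acid synthesis, stood at 5.24, 19.9 and 8.92 CPM in FL and at 6.36, 8.13 and 16.9 CPM in dE2 (-0.13 ± 0.68, adjusted p = 0.941), and Fads1, which acts later on that path, showed a log2 fold change of 0.03 ± 0.12. In Scd1 and Fads2 the highest library was replicate 2 in FL and replicate 3 in dE2. An alternative added after seeing the data used the replicate block without number 2 in both groups. It called Scd1 (0.34, adjusted p = 0.0397), Fads2 (0.64, adjusted p = 0.0169) and Scd2 (0.36, adjusted p = 0.0175) higher in dE2. The sign of Scd1 and Fads2 turned. In that fit 10.3% of all tested genes were called, and 5.89% were called higher.

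**Figure D3:**
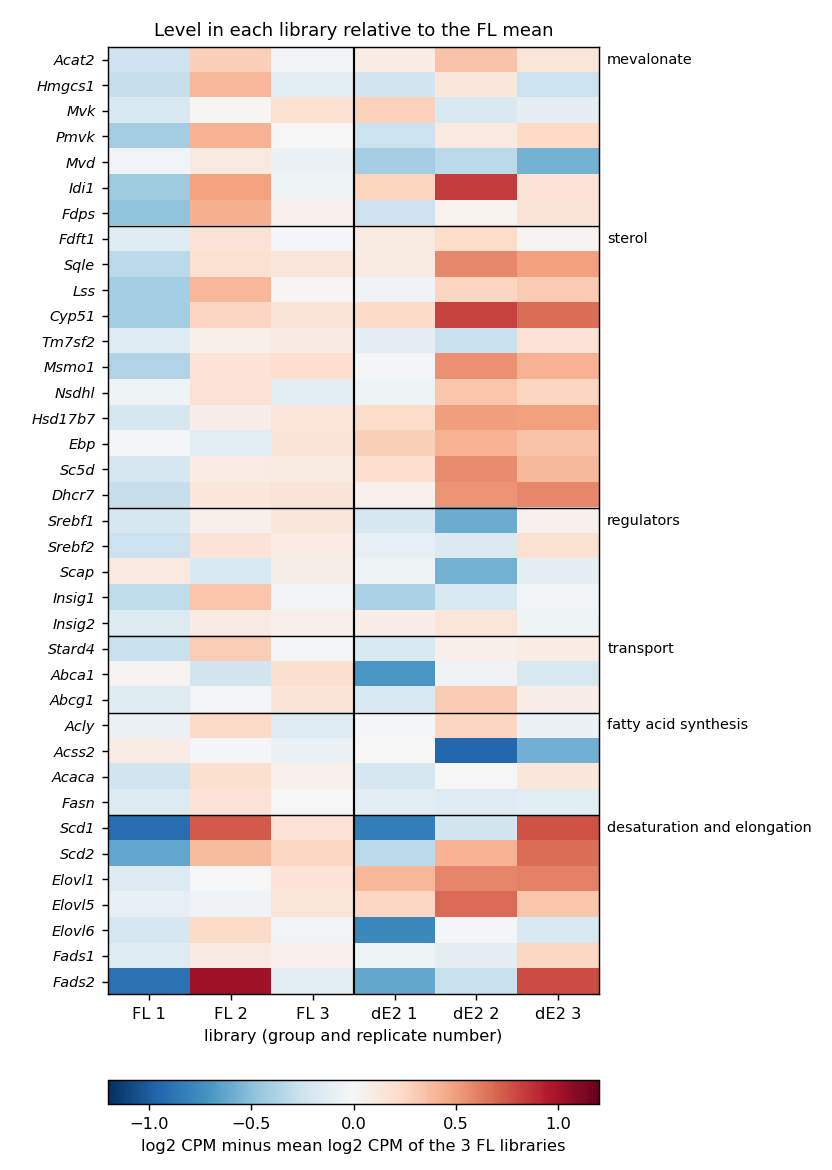
Log2 CPM of each member in each library relative to the FL mean of that gene (colour, red above and blue below), with members in rows by role and FL and dE2 replicates 1 to 3 in columns. Replicate 1 is the palest or bluest column of its group for most sterol enzymes and for Scd1, Scd2 and Fads2, and the sterol enzymes are reddest in dE2 replicates 2 and 3.

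The stretches upstream of 4 of these genes are shown because Elovl1 and Mvd were the members that passed without the block and Cyp51 and Hsd17b7 were the highest sterol enzymes by fold. The 4 were chosen after their values were seen. Each is the 250 bases before the RefSeq start (GRCm38.p6, 5′ to 3′ along the gene), with matches to CCAAT or CACGTG on either strand in capitals. For Elovl1 the first of its listed starts was taken.
Mvd, chr8:122443423-122443672, minus strand: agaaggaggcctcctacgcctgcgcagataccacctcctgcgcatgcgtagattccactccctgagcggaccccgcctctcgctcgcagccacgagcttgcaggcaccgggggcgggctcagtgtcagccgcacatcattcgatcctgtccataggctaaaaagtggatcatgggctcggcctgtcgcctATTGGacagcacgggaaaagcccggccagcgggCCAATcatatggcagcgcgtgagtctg
Cyp51, chr5:4104698-4104947, minus strand: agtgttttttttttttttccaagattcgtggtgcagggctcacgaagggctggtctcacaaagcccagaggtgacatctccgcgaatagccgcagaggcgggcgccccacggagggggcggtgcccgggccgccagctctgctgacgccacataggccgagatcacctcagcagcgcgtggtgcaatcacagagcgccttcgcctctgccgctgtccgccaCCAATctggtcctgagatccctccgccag
Hsd17b7, chr1:169969206-169969455, minus strand: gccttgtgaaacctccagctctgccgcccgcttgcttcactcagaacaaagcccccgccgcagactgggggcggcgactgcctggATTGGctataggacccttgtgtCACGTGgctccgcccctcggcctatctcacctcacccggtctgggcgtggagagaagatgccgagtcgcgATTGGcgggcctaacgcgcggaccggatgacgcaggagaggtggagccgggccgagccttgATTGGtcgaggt
Elovl1, chr4:118427843-118428092, plus strand: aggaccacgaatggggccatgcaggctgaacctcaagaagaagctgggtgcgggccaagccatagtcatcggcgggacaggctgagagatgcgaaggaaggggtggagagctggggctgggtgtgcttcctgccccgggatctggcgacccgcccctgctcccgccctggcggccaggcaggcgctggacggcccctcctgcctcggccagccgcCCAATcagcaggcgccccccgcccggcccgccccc
Mvd holds CCAAT on both strands, Hsd17b7 holds 3 matches to CCAAT on the other strand and 1 CACGTG, and Cyp51 and Elovl1 hold 1 CCAAT each. No stretch here matched TCACNCCAC, a core form of the sterol regulatory element. The pattern takes a single form, so a stretch without a match can still hold the element in another form.

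RefSeq promoters were matched by symbol for 29 of the 37 members, and both strands of the 250 bases were searched. A gene with several listed starts, member or not, counted as holding a motif if any of its starts matched. For Dhcr7 and Scap the CACGTG lay at a later listed start and not at the first. CCAAT, the motif of NF-Y, a known partner of SREBP, was found in 22 of 29 members (75.9%), against 40.6% of the deposited genes with a promoter. CACGTG, the E-box core that SREBP and other basic helix-loop-helix factors can bind, was found in 7 of 29 (24.1%), against 9.91%. TCACNCCAC was found in 1 of 29 (Hmgcs1, 3.45%), against 1.24%. Of 3 further motifs searched, TCACNCNAC, which takes in TCACNCCAC, was found in 2 of 29 (6.9%, against 2.84%), and TCACGTGA, which takes in CACGTG, in 0 of 29 (against 1.87%). GGGCGG was found in 24 of 29 (82.8%, against 62.6%). A match is a description of letters in this window and shows no binding.

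Levels between genes were compared as RPKM, which divides CPM by the counted length of the gene. In FL, Scd2 was the most abundant member at 301 ± 100.4 RPKM (SD, n = 3), followed by Ebp at 158 ± 16, Elovl1 at 144 ± 16.4, Abcg1 at 122 ± 12.9, Cyp51 at 119.9 ± 27.8 and Elovl5 at 118 ± 10.7 RPKM. The lowest were Acss2 at 0.614 ± 0.0362 and Abca1 at 1.14 ± 0.162 RPKM. The exporters Abcg1 and Abca1 thus stood at opposite ends of the order. Of the 36 neighbouring pairs in the FL order, 29 had overlapping libraries and 7 did not, so most neighbours do not differ beyond their spread.

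**Figure D4:**
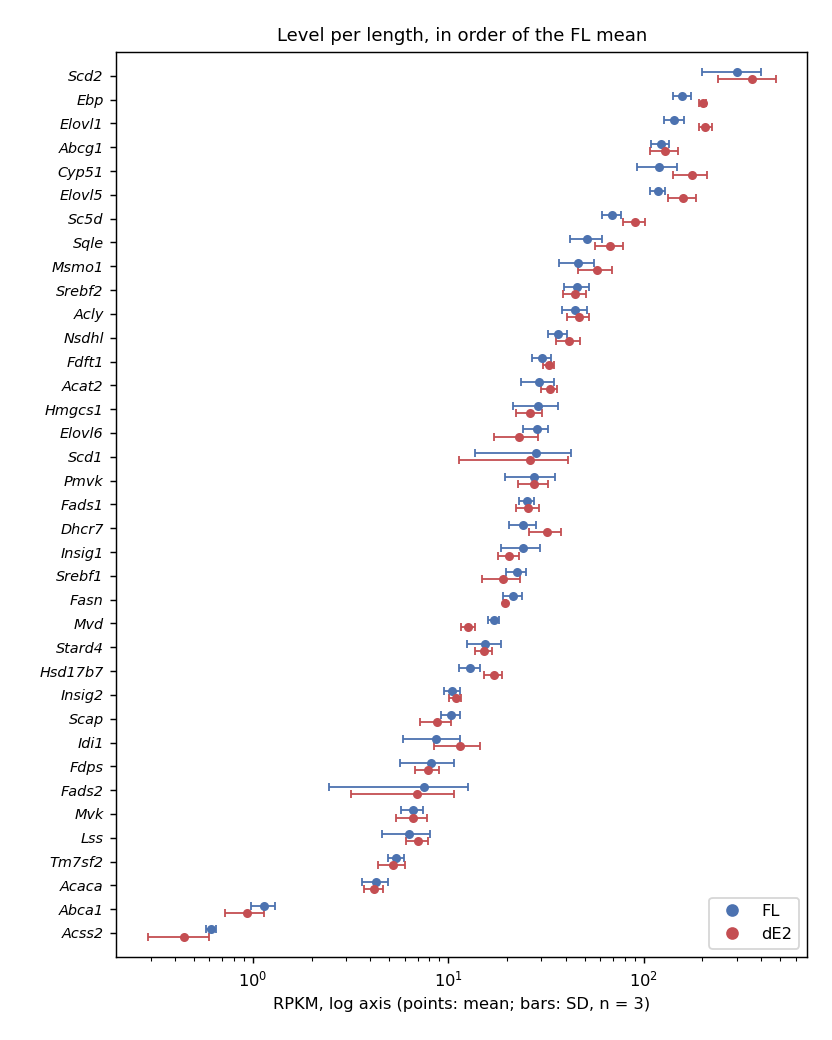
RPKM of the 37 members (horizontal log axis) in order of the FL mean. Points are the means of FL and dE2, and bars are the SD of each group. Scd2 is at the top near 301 RPKM in FL and Acss2 at the bottom near 0.614 RPKM. Single libraries, which overlap in FL for most neighbouring genes, are not drawn.

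The surrounding lipid pathways held 9 calls. Of 75 such genes in 6 lists, 8 rose in dE2 and 1 fell (12%, against 6.17% of all tested genes), their median log2 fold change was 0.17, and 49 were above 0. With the replicate block 19 were higher and 4 lower (30.7%, against 21.5%). The lists were written with earlier results of these data known, so these shares describe the lists and are not an independent test. By list, the genes that passed without the block were 1 of 10 for SREBP processing, 1 of 10 for LXR, 0 of 13 for the isoprenoid branch (3 with an unadjusted p under 0.05), 3 of 12 for sterol esterification and trafficking, 3 of 18 for other lipogenic genes and 1 of 12 for fatty acid oxidation.

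The 3 of the other lipogenic genes that passed were Elovl7, Hsd17b12 and Hacd3. Elovl7, another elongase, stood at 6.12, 7.50 and 7.22 CPM in FL and at 9.30, 18.7 and 18.8 CPM in dE2, with dE2 replicates 2 and 3 well above dE2 replicate 1 (1.16 ± 0.24, edgeR adjusted p = 0.0133). Hsd17b12, the ketoreductase of the elongation cycle, stood at 288, 361 and 353 CPM in FL and at 412, 580.0 and 518 CPM in dE2 (0.59 ± 0.14, adjusted p = 0.0171). Hacd3, a dehydratase of the same cycle, stood at 147, 156 and 169 CPM in FL and at 208, 268 and 232 CPM in dE2 (0.58 ± 0.12, adjusted p = 0.00851). In all of these the dE2 libraries lay above the FL libraries. Tecr, the last enzyme of that cycle, and Hacd2, another dehydratase, named here after their values were seen, did not pass, with log2 fold changes of 0.27 ± 0.14 (adjusted p = 0.248, with the block 0.0476) and 0.21 ± 0.12 (0.332, with the block 0.188). Gpam, which adds the first acyl chain to glycerol 3-phosphate, showed a log2 fold change of 0.52 ± 0.20 (adjusted p = 0.115, with the block 0.0139).

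In sterol trafficking, Nceh1, a cholesteryl ester hydrolase, stood at 44.8, 37 and 43.4 CPM in FL and at 62.1, 65.9 and 63.3 CPM in dE2 (0.61 ± 0.12, edgeR adjusted p = 0.00421). Stard3, a late endosomal cholesterol carrier, stood at 81.7, 87.5 and 96.6 CPM in FL and at 125, 128 and 124 CPM in dE2 (0.51 ± 0.11, adjusted p = 0.0116). Tmem97, a sterol-responsive membrane protein that is the sigma-2 receptor, stood at 251, 342 and 339 CPM in FL and at 361, 519 and 525 CPM in dE2 (0.59 ± 0.16, adjusted p = 0.0337). None of the 3 overlapped between groups. Gramd1b, which moves cholesterol from the plasma membrane to the endoplasmic reticulum, showed a log2 fold change of 0.68 ± 0.22 (adjusted p = 0.117, with the block 3.97e-09).

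Of the genes that act on SREBP and INSIG, Erlin2, a protein of the endoplasmic reticulum known to restrain SREBP activation, stood at 40.7, 45.9 and 51.2 CPM in FL and at 62.2, 84.1 and 74.7 CPM in dE2 (0.68 ± 0.13, edgeR adjusted p = 0.00385). Mbtps1, the site-1 protease that cuts SREBP, showed a log2 fold change of 0.32 ± 0.12 (adjusted p = 0.118, with the block 0.00716). The LXR list was the only one of the 6 with a median below 0 (-0.22). Nr1h2, the receptor LXRβ, fell: it stood at 38.7, 35.7 and 39.1 CPM in FL and at 31.9, 19.7 and 27.9 CPM in dE2 (-0.51 ± 0.15, adjusted p = 0.0455). Its dE2 libraries were all below its FL libraries. Mylip, a ubiquitin ligase induced by LXR, showed a log2 fold change of -0.64 ± 0.22 (adjusted p = 0.0833, with the block 0.0142) and Smpdl3a, another LXR target, one of -0.42 ± 0.16 (adjusted p = 0.121, with the block 0.0207). With the block 3 of the 10 LXR genes were lower and 1 was higher. The higher one, named after its values were seen, was Lpcat3, a phospholipid acyltransferase and LXR target (0.29 ± 0.13, adjusted p = 0.193, with the block 0.0149). Lpcat3 shares 10.2% of its counted bases with Emg1 on the other strand, so its value is uncertain. The LXR partner Rxra, also named after its values were seen, was at 0.33 ± 0.17 (adjusted p = 0.25, with the block 0.0728).

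In the isoprenoid branch, Rce1, the protease that trims prenylated proteins, showed a log2 fold change of 0.37 ± 0.12 (edgeR adjusted p = 0.0616, with the block 0.00148). Pdss2, which builds the ubiquinone tail, had one of 0.38 ± 0.15 (0.133, with the block 0.041) and Coq2, which attaches that tail, one of -0.28 ± 0.14 (0.228, with the block 0.0481). In fatty acid oxidation, Acadvl, the very long chain acyl-CoA dehydrogenase, stood at 65.9, 65.4 and 68.6 CPM in FL and at 101, 109.7 and 75.1 CPM in dE2 (0.52 ± 0.13, adjusted p = 0.0234). However, 42.9% of its counted bases overlap Dvl2 on the other strand, whose reads cannot be told apart from its own. Hadhb, of the trifunctional protein, showed a log2 fold change of 0.45 ± 0.14 (0.0656, with the block 0.000447) and the carnitine carrier Slc25a20 one of 0.39 ± 0.12 (0.0657, with the block 0.00411).

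Among these 9 calls, only that of Nceh1 held in every fit that left out 1 library. Without dE2 replicate 2 the adjusted p was 0.0519 for Erlin2, 0.0821 for Hacd3, 0.109 for Elovl7, 0.0655 for Stard3, 0.151 for Hsd17b12, 0.229 for Tmem97, 0.179 for Acadvl and 0.229 for Nr1h2. Without FL replicate 1 it was 0.0511 for Hacd3, 0.086 for Stard3, 0.108 for Hsd17b12, 0.153 for Tmem97, 0.0752 for Acadvl and 0.119 for Nr1h2. Stard3 (0.0538), Acadvl (0.074) and Nr1h2 (0.0716) were also lost without FL replicate 2, and Tmem97 (0.0592), Acadvl (0.0634) and Nr1h2 (0.132) without FL replicate 3. Without dE2 replicate 3, Elovl7 (0.0547), Hsd17b12 (0.0505), Tmem97 (0.115) and Nr1h2 (0.0803) were lost. Tmem97 (0.0945) and Acadvl (0.0647) were lost without a composition factor. In limma-voom Tmem97 (0.0547), Acadvl (0.0526) and Nr1h2 (0.065) did not pass, nor did Tmem97 (0.051) and Nr1h2 (0.0708) without the robust setting, or Nr1h2 (0.052) with a minimum of 5 CPM.

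**Figure D5:**
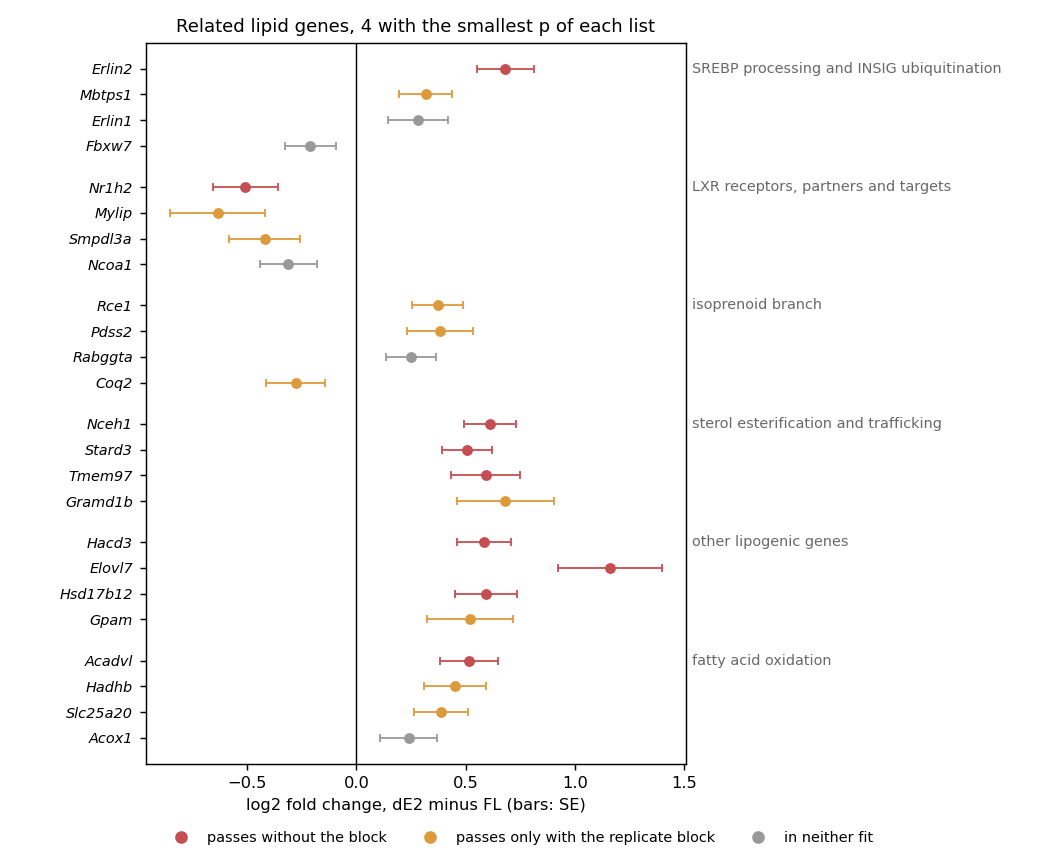
Log2 fold change, dE2 minus FL, with its standard error (bars) of the 4 genes with the smallest p in each of the 6 related lists, 3 libraries a group. Elovl7 lies farthest right at 1.16, and the LXR genes shown all lie left of 0.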

How the data were processed

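PolyA RNA of 6 libraries, 3 FL and 3 dE2, was sequenced. The authors deposited whole-number counts of reads per gene and the counted length of each gene, a score in bases. Per the submitters' processing notes the tools were STAR 2.5, bcl2fastq, edgeR 3.20.8 and Subread 1.5.1 with featureCounts, on mm10. No source used here gives the strand setting. The authors' deposited table of the comparison holds a log2 fold change and a p-value with its FDR for each of 14777 genes. Their deposited mapping table gave the sense share of coding reads and the share of reads in genes. The share in genes was 70.25%, 71.45% and 69.25% in FL replicates 1 to 3. In dE2 replicates 1 to 3 it was 75.45%, 75.54% and 69.33%.

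Deposited counts were tested with edgeR 4.0.16 in R 4.3.3 (filterByExpr by group, TMM, robust quasi-likelihood test, two-sided). This left out 145 genes and tested 14632, and p-values were adjusted over all of these. The biological coefficient of variation was 13.1%. SE is the log2 fold change divided by the square root of F. The fit was first checked on simulated counts. Alternatives used limma 3.58.1 and DESeq2 1.42.0. The replicate number was a block in an alternative fit: deviations of same-numbered libraries from their group means correlated at 0.392, 0.207 and 0.185 over all genes, and those of other pairs at between -0.287 and 0.0972, a pairing read from the data and not given by the labels. With the block 2 residual degrees of freedom remain and the coefficient was 9.2%. The median prior degrees of freedom were 291 with the block and 17.2 without, so block p-values rest almost wholly on a variance shared over genes.

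The rule that picks the members by name uses no measured value, but the members and lists were chosen with earlier results of these data known. Members past the threshold and those with the smallest p of each role are given in full, except Scap and Abca1, whose levels by library are not printed. Of each related list, up to 4 genes among those with the smallest p are named. Tecr, Hacd2, Lpcat3 and Rxra were added after their values were seen. Of 77 related genes, 2 were not analysed here, nor were 7 of 24 markers.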

Additional observations from a re-analysis of the deposited data

How the results depend on the processing

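Of 23 alternatives 16 were planned, and the others were added after seeing the data. The replicate block gave 1678 higher and 1471 lower among all genes, 10 and 2 among members and 19 and 4 among the 75 related genes. Without a composition factor (members above 0: 14 of 37, median of all genes -0.14) 264 genes were higher and 954 lower, 0 members were higher and 3 related genes lower, so 21.7% of calls were higher against 60.7%. With both changes 2644 genes were lower, 7 members were higher and 8 lower, and 13 related genes were lower. DESeq2 called 6 members higher and the likelihood ratio test 3. In limma-voom 227 genes, 0 members and 0 related genes were lower. Without the robust setting 0 members and 0 related genes were lower, and with a minimum of 5 CPM 0 related genes. At an adjusted p under 0.01, 184 genes were higher and 57 lower, and 0 members passed in either direction.

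Leaving out 1 library at a time gave 125 to 780 genes higher and 51 to 587 lower, 0 to 7 members higher and 0 to 2 lower, 1 to 9 related genes higher and 0 to 1 lower, and a members' median between -0.042 and 0.18. The 7 were reached without dE2 replicate 1 (Sqle, Cyp51, Hsd17b7, Sc5d, Dhcr7, Elovl1 and Elovl5 higher, Mvd and Acss2 lower, against 9.29% of all genes). The count was 0 without FL replicate 1, FL replicate 2 or dE2 replicate 2, where 2.41%, 3.09% and 1.19% of all tested genes were called. With number 1, 2 or 3 left out of both groups and no block, 454, 56 and 30 genes were higher and 268, 12 and 8 lower, with 2, 0 and 0 members higher, 0 lower, 7, 0 and 0 related genes higher and 1, 0 and 0 lower. With the replicate block and number 1 left out of both groups, 887 genes were higher and 701 lower, and 7 members higher and 3 lower. Without number 2 the counts were 864, 651, 10 and 3, with 13 and 3 related genes, and without number 3 they were 1558, 1451, 10 and 3, with 16 and 9. Sqle, Cyp51, Hsd17b7, Sc5d, Dhcr7 and Elovl1 were higher and Mvd lower in all 5 fits with the block. Scd1 (0.34) and Fads2 (0.64) turned from negative to positive and passed with the block without number 2. Over single genes and alternatives 1224 results kept their side of the threshold (75 with another sign, passing in neither fit), 109 passed only in the alternative, 68 no longer passed and 2 turned. The causes were not tested. The limit that depth sets on single members was not tested.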
